A study of Mus musculus with 4 samples.

Results

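The Rab, Arf and Arl small GTPases are the proteins that mark membranes and direct the traffic of vesicles between them. They were taken here as every gene whose symbol is Rab, Arl or Arf followed by its number, with Arf limited to members 1 to 6 and with paralog letters allowed for Rab and Arl. This gave 80 of the 27189 genes in the files, of which 55 were Rab, 19 Arl and 6 Arf genes. Poly(A) RNA was sequenced from laser-microdissected motor neuron cell bodies of the ventral spinal cord at 3 months of age, in 2 mice with a wild-type SOD1-YFP transgene (strain 592) and 2 mice with a G85R SOD1-YFP transgene (strain 737), and each library came from 1 mouse. Both transgenes were a genomic fragment of human SOD1, with its own promoter, fused to yellow fluorescent protein, and both lines were kept on a C57BL/6J x SJL/J background. The G85R strain, which goes on to paralysis, carries far more copies of its transgene, at an insertion on chromosome 4, and the wild-type strain does not develop motor disease. Genotype, copy number, insertion site and strain cannot be told apart in these 4 libraries. Cell bodies with bright aggregates were left out of the dissection by the authors, so the G85R libraries hold the motor neurons without them.

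A small GTPase is active when bound to GTP and inactive when bound to GDP. Exchange factors load the GTP, GTPase-activating proteins (GAPs) end the active state, and effectors such as tethers, motors and coats are recruited only by the active form. Rab proteins are held on membranes by a prenyl group and are escorted between membranes by GDP dissociation inhibitors, whereas most Arf and Arl proteins use an N-terminal helix, often with a myristoyl group. In a motor neuron, whose axon reaches a distant muscle, these proteins act in the release of synaptic vesicles, in the axonal transport of endosomes and lysosomes and in the recycling of membrane at the terminal.

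Small GTPases bind the phosphates of the nucleotide through a glycine-rich loop, the P-loop. Its codons are shown because their frequencies differ between the families at 1 position. The loop was searched for only in the longest annotated coding sequence of each gene, after translation. The pattern was a glycine, 4 residues of any kind, a glycine, a lysine and a serine or threonine. It was found in 77 of the 80 members, and Rab40b, Rab40c and Rab43 had no match to this pattern. The codons below come from the coding strand of the NCBIM37 annotation, which is the mm9 assembly, and capitals mark the codons of the fixed residues.
Rab3a, chromosome 8, 73278578 to 73282576 on the plus strand, coding bases 85 to 108: GGGaacagcagcgtgGGCAAAACC
Rab3b, chromosome 4, 108551668 to 108615929 on the plus strand, coding bases 85 to 108: GGCaacagcagcgtcGGGAAGACC
Rab6b, chromosome 9, 103014404 to 103087600 on the plus strand, coding bases 58 to 81: GGGgagcagagcgtcGGGAAGACG
Arl8a, chromosome 1, 137043401 to 137052846 on the plus strand, coding bases 79 to 102: GGGctgcagtactcgGGCAAGACC
Arl3, chromosome 19, 46605599 to 46647575 on the minus strand, coding bases 70 to 93: GGCttggacaacgcgGGCAAGACT
Arf5, chromosome 6, 28373560 to 28376602 on the plus strand, coding bases 70 to 93: GGCttggatgcggctGGCAAGACT
Arl16, chromosome 11, 120326180 to 120328921 on the minus strand, coding bases 16 to 39: GGAgctgctggggtcGGGAAGACC
The codon just before the second fixed glycine was a valine codon (GTN) in 49 of the 52 Rab genes with a match, and an alanine codon (GCN) in 6 of 6 Arf genes. Among the 19 Arl genes it was an alanine codon in 12, another codon in 6, and a valine codon in 1, Arl16. In Arl16 the loop starts at residue 6, against residue 24 in Arf5 and Arl3 and residue 29 in Rab3a. The coding sequence of Arl16 runs over bases 178 to 699 of a transcript of 911 bases with 5 exons.

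The members were well represented in motor neuron RNA. Levels are given as RPKM, reads scaled to the length of the transcript and to the mapped reads of the library. Of the 80 members, 74 (92.5%) were above 0 in all 4 libraries, against 58.7% of all genes, and the median over members of the mean RPKM was 16.6, against 0.301 over all genes. A mean of at least 10 RPKM was reached by 46 members and of at least 100 by 12. The members together summed to 4103 and 4074 RPKM in wild-type, against 4108 and 4119 in G85R, which was 1.05 to 1.06% of the RPKM of all genes. Both G85R sums lay above both wild-type sums. As a share of the RPKM of all genes the members stood at 1.060 and 1.048% in wild-type, against 1.047 and 1.046% in G85R. Neither difference was tested. Under the minimum of 1 RPKM used for the test were 12 of the 80 members, and no test was made for them. Of these, Rab17, Arl9 and Arl13a were listed at 0 in all 4 libraries, and Rab25, Rab19 and Arl11 had means of 0.00883, 0.0261 and 0.0686 RPKM. Rab17 and Rab25 are known from epithelial cells, and Rab32 and Rab38, which act in pigment granules, had means of 0.782 and 0.216 RPKM. At the edge of the filter, the lowest tested member was Rab34 with a mean of 1.14 RPKM and the highest member left out was Arl13b, a ciliary GTPase, with 0.892.

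Libraries had about 21560318 to 25186594 estimated reads on genes, and the RPKM of 1 read had a median of 0.0195 to 0.0226. The 10 fixed motor neuron markers (Chat, Slc18a3 and others) were all detected and summed to between 9019 and 10784 RPKM. The 8 astrocyte markers summed to 904 and 894 RPKM in wild-type, against 1292 and 990 in G85R replicates 1 and 2, with Gfap at 11.5, 17.1, 91.9 and 28.4. The 9 oligodendrocyte markers summed to between 864 and 1116, the 10 microglial markers to 16.5 and 18.3 in wild-type, against 38.3 and 19.2 in G85R, and the 6 endothelial markers to between 7.49 and 9.96. Of 5 red blood cell markers 3 were in the files, and they summed to 1.82 and 2.10 in wild-type, against 11.5 and 10.8 in G85R. The sums of the astrocyte, microglial and red blood cell markers were higher in both G85R libraries, though not the value of each marker. For microglia the gap to wild-type was small in G85R replicate 2. The highest glial sums were those of G85R replicate 1. In such bulk libraries fewer cells of a type and less RNA per cell cannot be told apart. The part of glial RNA in the values below was not tested, but the value of Arl16 is also given without G85R replicate 1.

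**Figure D1:**
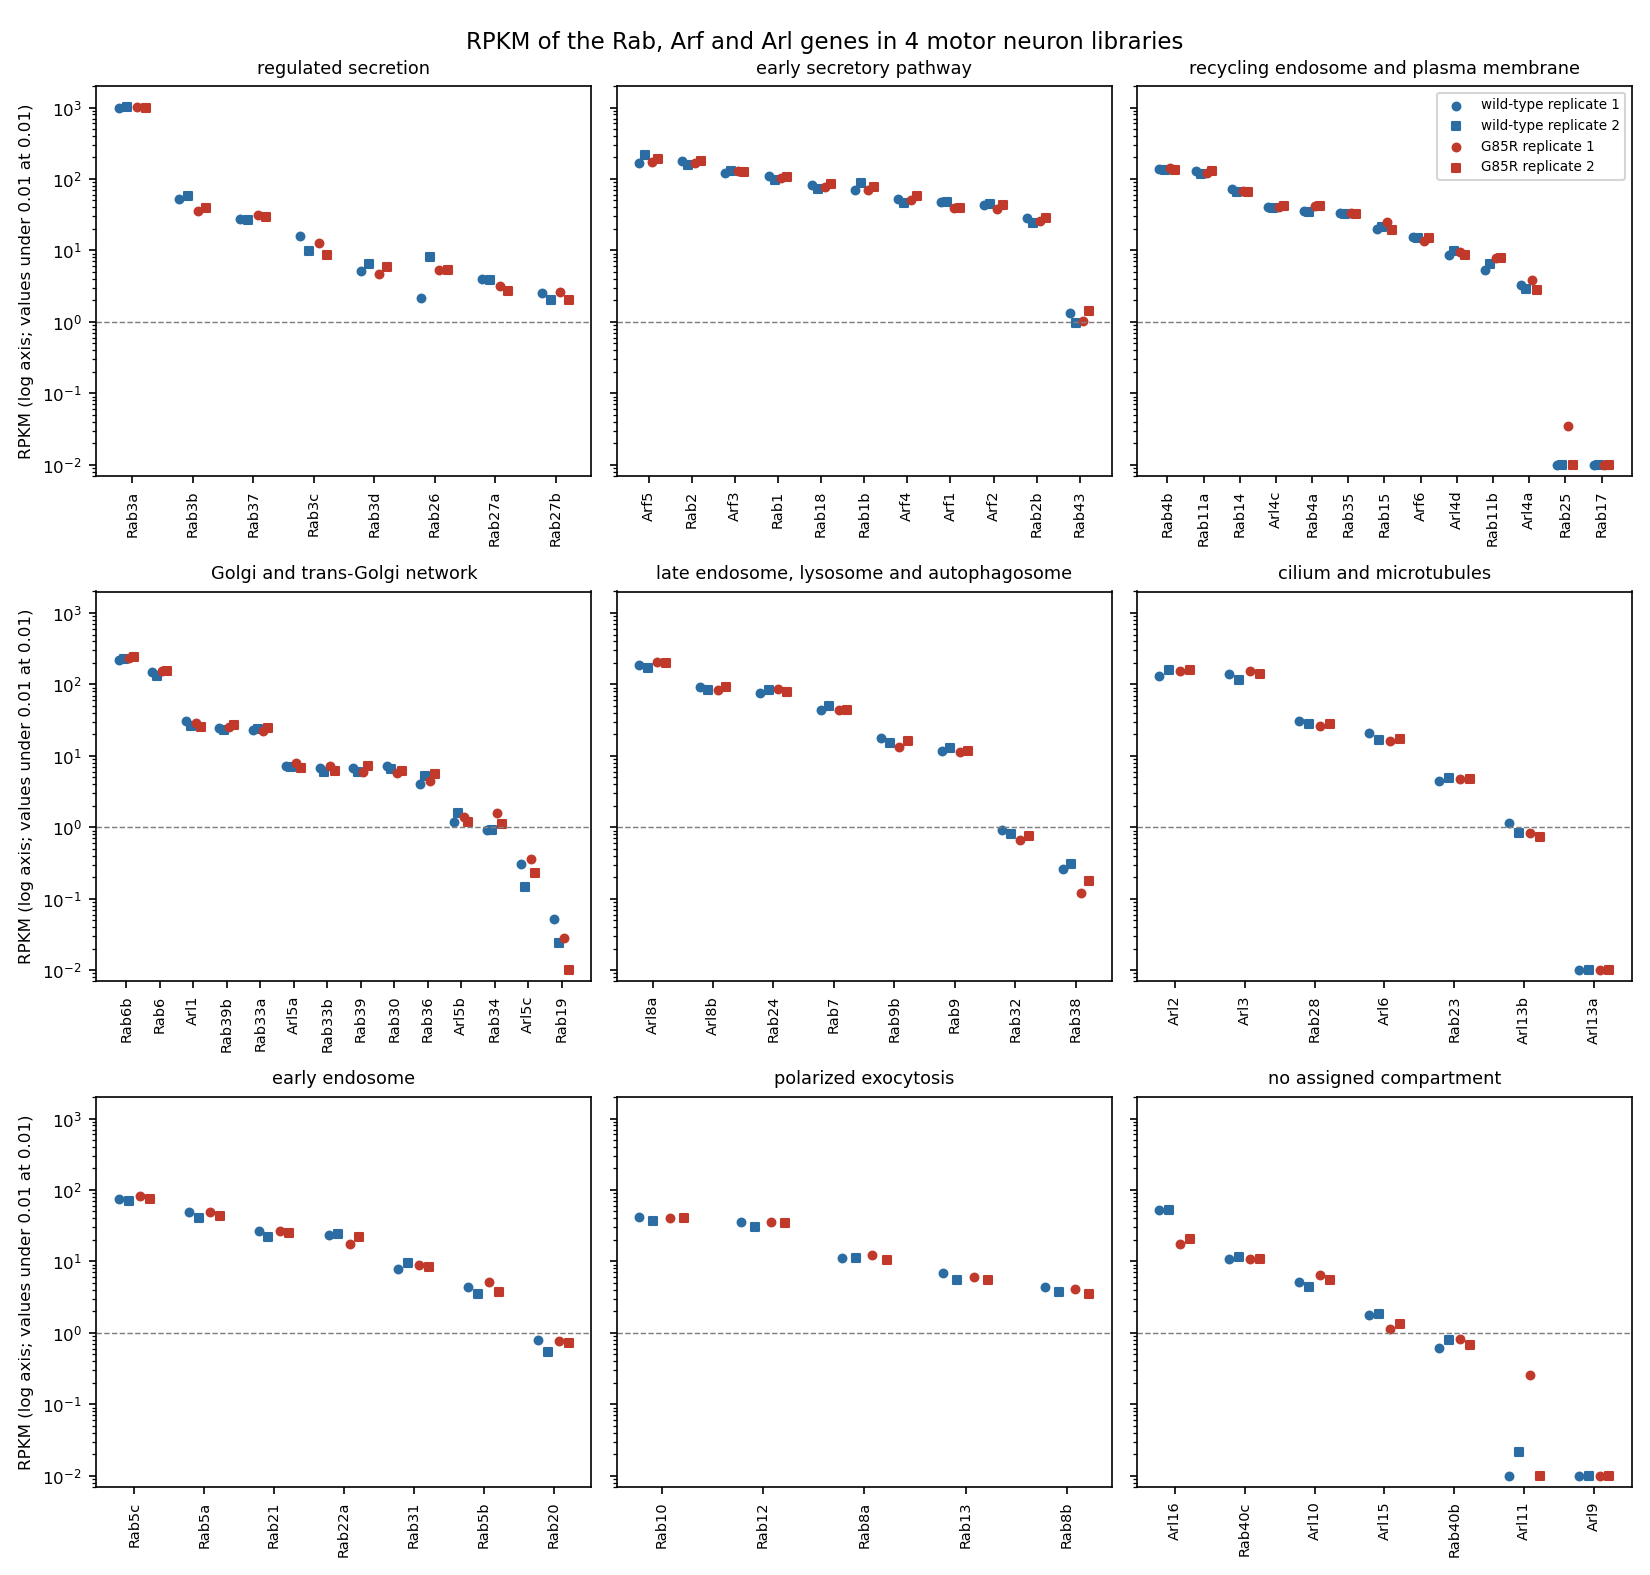
RPKM (log axis) of each of the 80 members in the 2 wild-type (blue) and 2 G85R (red) libraries, one panel per compartment, with members ordered by their mean and the dashed line at 1 RPKM. Rab3a stands near 1000 RPKM in every library, and Arl16 is the member whose blue and red points lie farthest apart among those above 10 RPKM.

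The compartments below were assigned from textbook knowledge of each protein, and values in parentheses or in series are ordered as wild-type replicates 1 and 2 and then G85R replicates 1 and 2. For regulated secretion, the release of vesicles on a signal, the highest member was Rab3a, the Rab of synaptic vesicles. Its RPKM was 999.8 and 1025 in wild-type, against 1001 and 987 in G85R, and the genotypes overlapped. It ranked 27th by mean RPKM among all genes, and it made up 93.2 to 94.96% of the summed RPKM of its 4 paralogs in the 4 libraries. Its log2 fold change was -0.03 with a 95% interval of -0.23 to 0.18, an interval that leaves out changes of 1.5-fold in either direction.

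Rab3b, the second Rab3 paralog, stood at 51.8 and 57.6 RPKM in wild-type, against 35.7 and 38.8 in G85R. Both G85R values lay under both wild-type values, and Rab3b took 4.83 and 5.24% of the Rab3 sum in wild-type against 3.38 and 3.73% in G85R. On the log2(RPKM + 0.1) scale the difference was -0.55 ± 0.11 (SE, n = 2 per genotype), with an unadjusted p of 0.00158 and an adjusted p of 0.111 in limma, so Rab3b was not called. Rab3b, another member, Rab2, and the transgene insertion of the G85R strain are on chromosome 4. Rab2 overlapped between genotypes, with a log2 difference of 0.05 and an unadjusted p of 0.622 in limma. The distance of either gene from the insertion was not analysed. Rab3c stood at 15.9, 9.95, 12.8 and 8.55 RPKM and Rab3d at 5.09, 6.47, 4.69 and 5.89, and both overlapped between genotypes. In Rab3c the replicate 1 libraries were the high ones in both genotypes, and in Rab3d the replicate 2 libraries were.

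Rab27a, which tethers secretory granules through the synaptotagmin-like proteins, was 3.93 and 3.84 RPKM in wild-type, against 3.21 and 2.73 in G85R. Its log2 difference was -0.38 ± 0.16 with an unadjusted p of 0.0483 and an adjusted p of 0.446. Its paralog Rab27b gave 2.56, 2.04, 2.60 and 2.03 RPKM, and its genotypes overlapped. Rab37, a Rab of secretory granules, was 27.7 and 26.7 RPKM in wild-type, against 31.6 and 29.4 in G85R, with an unadjusted p of 0.167. Rab26, which is known on synaptic vesicles, was 2.15 and 8.06 RPKM in wild-type, against 5.29 and 5.31 in G85R, so that the spread within wild-type was larger than any genotype difference, and its 95% interval ran from -0.89 to 1.56.

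The early secretory pathway, between the endoplasmic reticulum and the Golgi, held 11 members, of which 10 had means over 10 RPKM. Arf5, which recruits coat proteins at the Golgi, was the highest at 166 and 219 RPKM in wild-type, against 169.9 and 192 in G85R. The next Arf was Arf3 at 122, 131, 128 and 124 RPKM. Among Arf1 to Arf5, Arf5 gave 38.5 to 44.9% and Arf3 26.9 to 30.0% of the sum. Rab2, which acts in transport between the endoplasmic reticulum and the Golgi, was 176, 157, 168 and 177 RPKM, over a gene model so short that 1 RPKM stood for only 8.30 reads. Rab1 (109.9, 96.6, 105 and 106) and Rab1b (69.9, 86.6, 70.9 and 78.0) overlapped between genotypes as well.

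Arf1, which recruits the COPI coat, was 48.2 and 46.9 RPKM in wild-type, against 39.2 and 38.7 in G85R, with both G85R values below both wild-type values. Its log2 difference was -0.29 ± 0.10, with an unadjusted p of 0.0227 and an adjusted p of 0.353. In Arf1, 65.6% of the 75-base windows along the annotated transcripts matched elsewhere in the genome with at most 2 mismatches, so part of its reads could come from a near-identical copy.

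For recycling endosomes and the plasma membrane, the highest members were Rab4b at 136, 132, 143 and 133 RPKM, Rab11a at 130.0, 117, 120.5 and 127 RPKM, and Rab14 at 71.6, 65.6, 66.8 and 65.0. Rab4 proteins act in rapid return of receptors to the surface and Rab11 proteins in the slow route through the recycling endosome. All 3 overlapped between genotypes. Rab4a, the lesser Rab4 paralog, was 35.4 and 35.0 RPKM in wild-type, against 42.3 and 41.5 in G85R, with a log2 difference of 0.25 ± 0.10, an unadjusted p of 0.0387 and an adjusted p of 0.421. Rab11b was 5.37 and 6.53 RPKM in wild-type, against 7.70 and 7.75 in G85R, with a log2 difference of 0.38 ± 0.14, an unadjusted p of 0.0334 and an adjusted p of 0.409. In both, the G85R libraries were the high ones without overlap. The value of Rab11b is uncertain, since 57.6% of its windows matched elsewhere, whereas Rab4a had 0 such windows.

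Among the Golgi members, Rab6b, a brain form of the Rab that directs Golgi-derived vesicles along microtubules, was 222 and 227 RPKM in wild-type, against 237 and 243 in G85R. Rab6 was 147, 130.3, 154 and 152, and Arl1, which recruits golgins, was 30.5, 26.6, 29.0 and 25.8. Rab6b and Rab6 were higher in both G85R libraries than in both wild-type ones, by log2 differences of 0.10 and 0.14 with unadjusted p of 0.315 and 0.209, so neither passed the test. Rab6b made up 60.1 to 63.5% of the Rab6 sum in the 4 libraries.

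The late endosome and lysosome were led by Arl8a and Arl8b, which link lysosomes to kinesin for transport down the axon. Arl8a was 187 and 169.9 RPKM in wild-type, against 208 and 202 in G85R, and Arl8b was 90.9, 84.9, 84.3 and 93.2. Arl8a was higher in both G85R libraries by 0.20 ± 0.10 on the log2 scale, with an unadjusted p of 0.0783, and Arl8b overlapped. Rab24, linked to autophagy, was 76.0, 84.2, 86.9 and 78.7 RPKM. Rab7, the Rab of late endosomes, was 44.2, 50.3, 44.3 and 44.3 RPKM, with 64.0% of its windows matching elsewhere.

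Of the members at cilia and microtubules, Arl2, which acts with the tubulin cofactors, was 129, 157, 155 and 159 RPKM, and Arl3, which releases lipidated cargo in cilia, was 140.4, 117, 155 and 140.1. Rab28 was 30.6, 27.7, 26.2 and 27.5. In Arl2 and Arl3 the low values were single wild-type libraries, and both genes overlapped between genotypes, while Rab28 was lower in both G85R libraries with an unadjusted p of 0.33. Early endosomes were led by Rab5c (73.9, 70.9, 81.3 and 75.4 RPKM), Rab5a (49.4, 40.1, 49.2 and 43.7) and Rab21 (26.3, 22.04, 26.6 and 24.8). Rab5 proteins drive the fusion of early endosomes, and Rab5b was the least of the 3 at 2.99 to 3.80% of their sum, with 83.6% of its windows matching elsewhere. For polarized exocytosis, the transport of membrane to growing or polarized surfaces, the leading members were Rab10 (41.9, 36.9, 40.8 and 39.9 RPKM), Rab12 (35.2, 29.9, 35.7 and 34.6) and Rab8a (11.02, 11.02, 12.2 and 10.4). Of these members, those of the early endosome and of polarized exocytosis named here overlapped between genotypes, except Rab5c, whose lowest G85R value was above both wild-type values.

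Summed by compartment, the mean RPKM in G85R was 0.968 to 1.09 times that in wild-type in all 8 compartments. Regulated secretion summed to 1124 ± 21.5 RPKM (SD, n = 2) in wild-type and 1088 ± 11.5 in G85R, lower in G85R without overlap, and the early secretory pathway to 912 ± 16.5 and 902 ± 40.8. Recycling summed to 489 ± 16.8 and 499 ± 6.99, the early endosome to 178 ± 10.6 and 184 ± 7.67, and polarized exocytosis to 93.1 ± 8.65 and 96.4 ± 3.44. Somewhat higher sums without overlap were found in G85R for the Golgi (473 ± 12.9 and 504 ± 4.11, a ratio of 1.07), the late endosome and lysosome (424 ± 7.53 and 448 ± 1.51, 1.06) and the cilium and microtubules (325 ± 1.77 and 354 ± 6.84, 1.09). In the late endosome and lysosome this rested on Arl8a, whose mean was 179 RPKM in wild-type and 205 in G85R. The median log2 fold change of the tested members there was -0.04, with 3 of 6 above 0. In the Golgi most of the difference lay in Rab6b (means 224 and 240 RPKM) and Rab6 (139 and 153), with 9 of 12 tested members above 0. In the cilium and microtubules it lay in Arl3 (129 and 148) and Arl2 (143 and 157), which overlapped between genotypes, with 3 of 5 tested members above 0. With 2 libraries per genotype an exact two-sided permutation test cannot go below 0.333, so the sums are given without a test. The members with no assigned compartment summed to 70.8 ± 0.483 in wild-type and 37.8 ± 1.14 in G85R, and Arl16 was the member with the largest difference among them.

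Between genotypes, 1 member passed the test, Arl16, which was lower in G85R. Genotypes were compared by limma on log2(RPKM + 0.1), for 68 tested members among 11530 tested genes, with Benjamini-Hochberg adjustment over all of them. At an adjusted p under 0.05, 1 of 68 members was called, against 0.642% of all tested genes, and 0.373% of all tested genes were called lower. At an unadjusted p under 0.05 there were 7 members (10.3%), 2 higher and 5 lower, against 11% of all tested genes. The genotypes did not overlap in 20 members (29.4%), 10 in each direction, against 41.2% of all tested genes. These shares were near or under the background, apart from the single call. The median log2 fold change of the members was 0.03, with 40 of 68 above 0 (58.8%), and that of all tested genes was -0.02, with 45.3% above 0. The direction of the members rested on single libraries, since their median was -0.0224 without G85R replicate 1 and -0.0055 without wild-type replicate 2, with 32 of 68 above 0 in each case.

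The members differed little between genotypes. The median size of their log2 difference between genotype means was 0.0921, against 0.124 over all tested genes. Between replicates the median difference was 0.172 in wild-type and 0.136 in G85R for the members, against 0.156 and 0.145 over all tested genes. Means of 2 libraries vary less than single libraries, so the genotype and replicate values cannot be set directly against each other. For 65 of 68 tested members the 95% interval of the fold change lay within 2-fold in either direction, and for 55 within 1.5-fold. Over all 11530 tested genes these counts were 10694 and 7763. The 3 whose interval reached beyond 2-fold were Arl16, Rab26 and Rab34. Rab34, a Golgi Rab, was at 0.923, 0.928, 1.59 and 1.10 RPKM. Its mean passed the minimum of 1 RPKM only through the G85R libraries, where it was high. Without Arl16 the log2 fold changes of the tested members ran from -0.55 (Rab3b) to 0.47 (Rab34).

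**Figure D2:**
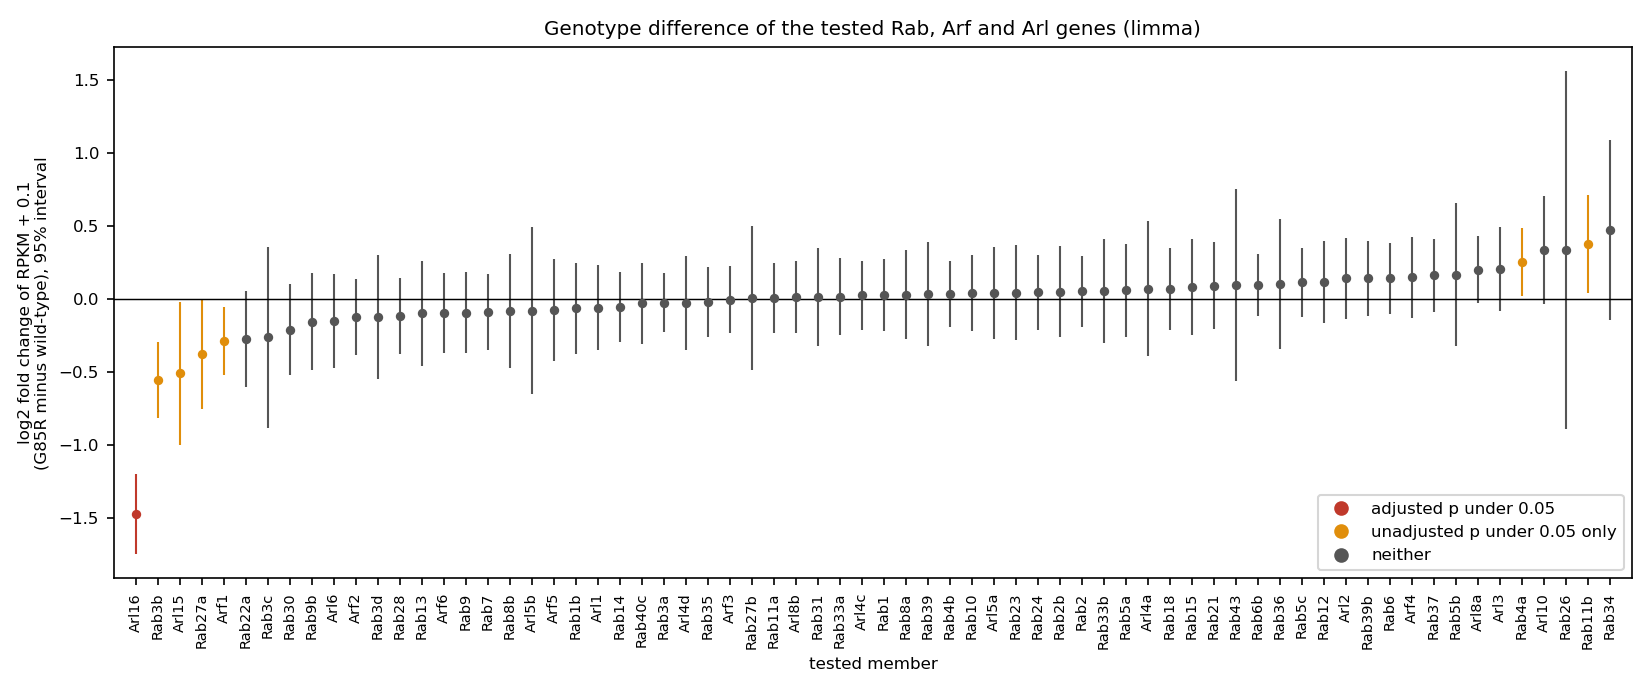
Log2 fold change of RPKM + 0.1 in G85R against wild-type with its 95% interval for the 68 tested members, ordered by size, from limma on 2 libraries per genotype. Arl16 lies at -1.47, clear of the other members, which lie between -0.55 and 0.47, and orange marks the 6 members with an unadjusted p under 0.05 only.

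Arl16 is an Arl protein with a divergent sequence, for which no compartment was assigned. It was 53.0 and 51.8 RPKM in wild-type, against 17.5 and 20.2 in G85R. The lowest wild-type value was above the highest G85R value by more than the spread within either genotype, and the wild-type mean was 2.78 times the G85R mean (52.4 ± 0.831 and 18.9 ± 1.95 RPKM, SD, n = 2). The log2 difference was -1.47 ± 0.12 (SE) with a 95% interval of -1.75 to -1.20 and an adjusted p of 0.00324 in limma. An estimated 2909 and 3023 reads stood behind the wild-type values, and 877 and 1078 behind those of G85R. None of its windows (0%) matched elsewhere in the genome with at most 2 mismatches. Without G85R replicate 1, the library with the highest glial markers, the log2 difference was -1.37 with an adjusted p of 0.00146. With each library left out in turn it ran from -1.58 to -1.37, and Arl16 was called each time. Among the alternatives, Arl16 lost its call where no minimum level was set, with an adjusted p of 0.169 at the same log2 difference of -1.47.

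The log-linear test named in the study, computed on the rounded RPKM with 1 read added, called 1 member of 80, again Arl16 with an adjusted p of 1.43e-05, against 0.228% of all 27189 genes. At an unadjusted p under 0.05 it listed Arl16 and Rab3b, against 1.29% of all genes. It treats RPKM as counts.

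The study designed an oligonucleotide pair to measure Arl16 by qRT-PCR, and its sequences show which part of the transcript that assay reads.
Forward: aactgccattcgctcttgttc
Reverse: ggtcatgtaacagggtaggtca
The forward oligonucleotide spans the junction of exons 3 and 4, at bases 394 to 414 of the transcript (chromosome 11, between 120327411 and 120327985, minus strand, NCBIM37), and the reverse one lies in exon 5, at bases 528 to 549 (120327114 to 120327135). Both lie within the coding sequence. The amplification values were not analysed here, and the RPKM sums reads over the whole gene, so the exons cannot be compared.

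Arl16 starts next to another gene of membrane traffic. Hgs, an endosomal sorting protein that takes ubiquitinated receptors into the late endosome, begins on the opposite strand at chromosome 11, 120328949 to 120345298 (plus strand, NCBIM37). Only 27 bases separate both annotated starts, at 120328922 to 120328948, and they are shown on the strand of Arl16 because they hold all of the sequence between both starts.
Arl16-Hgs gap: gcgcacgcgcaacgcctccgcgccgcc
Hgs was 46.3 and 52.6 RPKM in wild-type, against 53.3 and 55.0 in G85R, with a log2 difference of 0.13 ± 0.11 and an adjusted p of 0.745. Its 2 G85R values were above both wild-type values, opposite in direction to Arl16, and did not pass the test. On the other side, Ccdc137 (120319429 to 120325672, plus strand) ends 507 bases from Arl16 and runs towards it. It was 9.65, 9.25, 6.95 and 7.32 RPKM, a log2 difference of -0.40 ± 0.12 with an unadjusted p of 0.0125 and an adjusted p of 0.286.

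Of the 20 tested genes around Arl16, 10 on each side, 1 was called and 6 had an unadjusted p under 0.05. Over all tested genes these shares were 0.642% and 11%. The called gene, 1810049H13Rik, which was named after its values were seen, is 6797 bases from Arl16 and was higher in G85R, at 6.21 and 6.32 RPKM in wild-type, against 11.5 and 10.8 in G85R (log2 difference 0.82 ± 0.12, adjusted p = 0.0466). Log2 differences in this window ran from -0.82 to 0.82. Alleles of C57BL/6J and SJL/J that differ between the strains at this locus cannot be told apart from an effect of the transgene here.

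**Figure D3:**
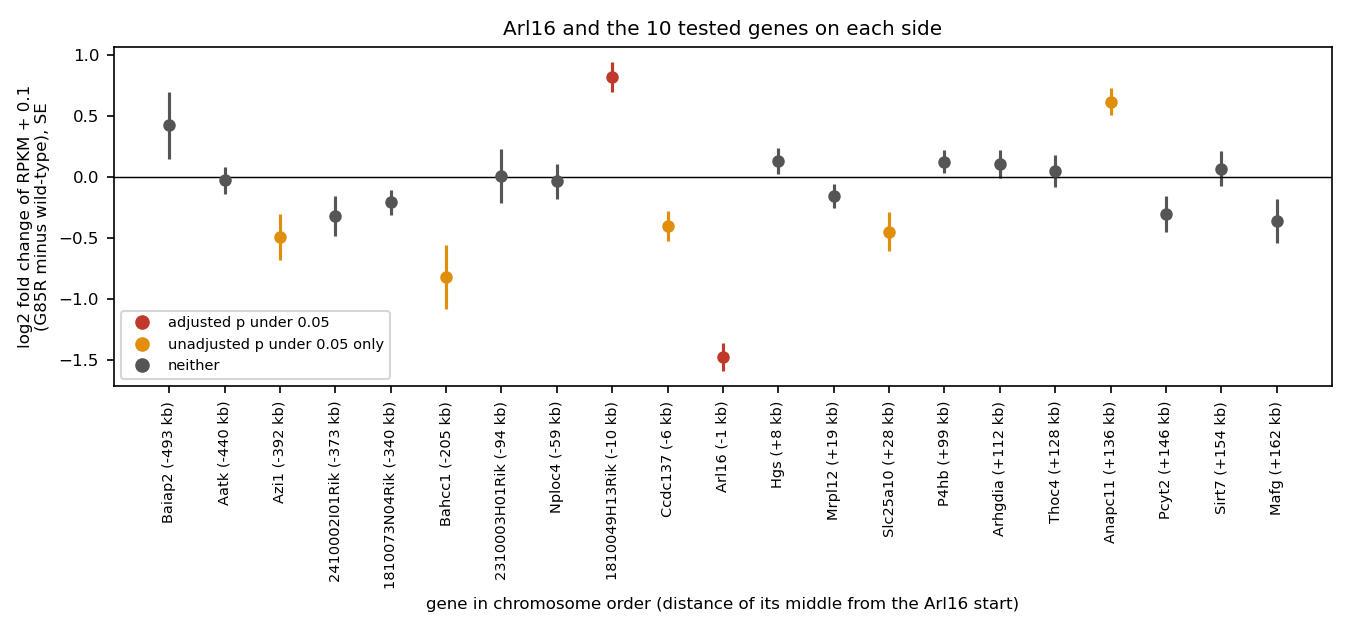
Log2 fold change of RPKM + 0.1 in G85R against wild-type (points, with SE) for Arl16 and the 10 tested genes on each side, in chromosome order with the distance of each gene's middle from the Arl16 start. Arl16 at -1.47 lies between Ccdc137 at -0.40 and Hgs at 0.13, and 1810049H13Rik at 0.82 is the other gene with an adjusted p under 0.05.

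Of the other members with no assigned compartment, Rab40c was 10.6, 11.6, 10.8 and 10.9 RPKM, and Arl10 was 5.08 and 4.33 in wild-type, against 6.47 and 5.45 in G85R, with an unadjusted p of 0.0706. Arl15 was 1.75 and 1.81 RPKM in wild-type, against 1.14 and 1.31 in G85R, with a log2 difference of -0.51 ± 0.21, an unadjusted p of 0.0433 and an adjusted p of 0.435. Its low level and the 17.3% of its windows that match elsewhere limit that value.

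**Figure D4:**
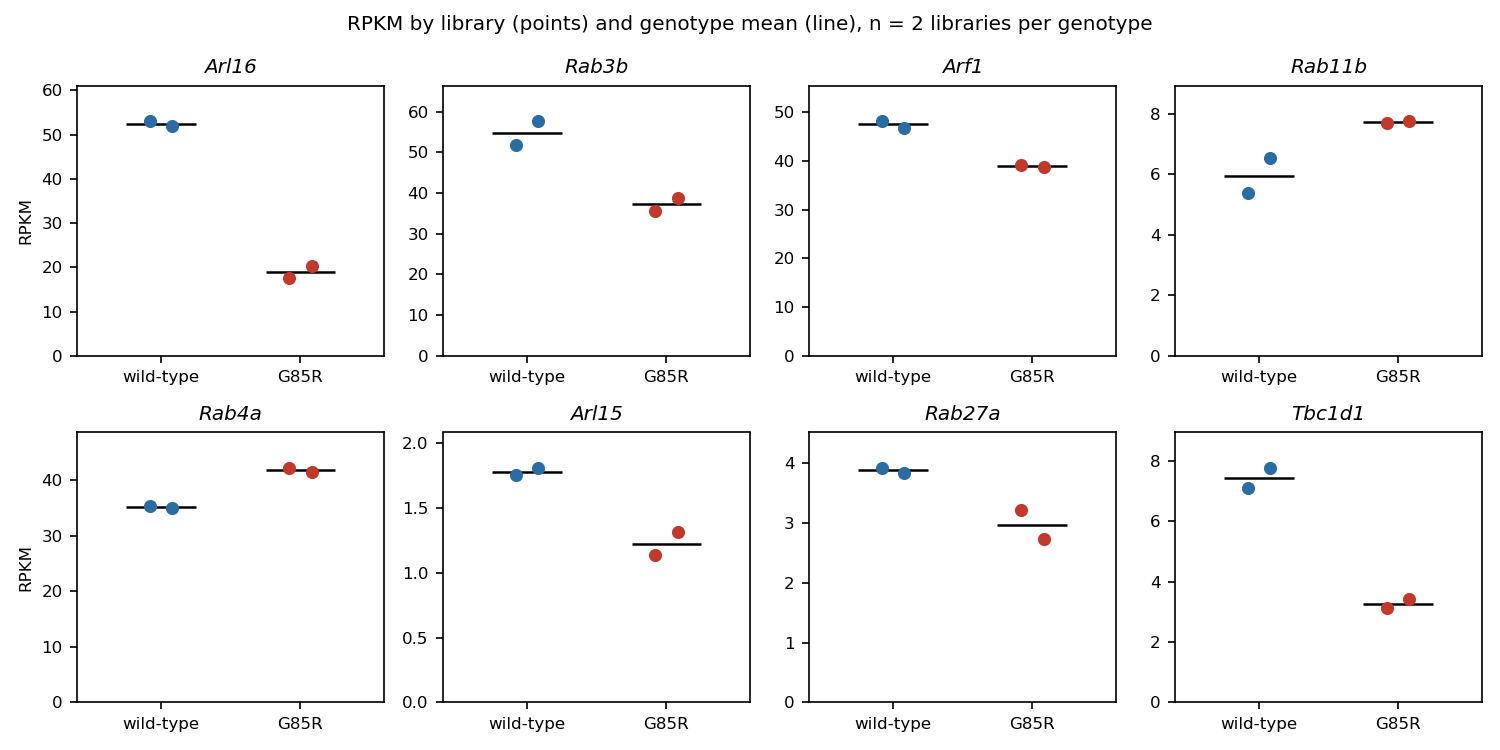
RPKM of the 7 members with an unadjusted p under 0.05 and of the GAP Tbc1d1 in each library (points, n = 2 per genotype) with the genotype mean (line), each axis starting at 0. Arl16 and Tbc1d1 are the panels with an adjusted p under 0.05, and the mean of Arl16 is 52.4 RPKM in wild-type and 18.9 in G85R.

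The proteins that act on these GTPases were read in the same test, as lists by role. Of 249 listed symbols of regulators, effectors and coat genes, 209 were in the files and 182 were tested. A symbol that was not found does not show that its gene was absent. Of these, 1 was called, against 0.642% of all tested genes. At an unadjusted p under 0.05 there were 11 (6.04%), 2 higher and 9 lower, which was under the background of 11%, and the median log2 fold change was -0.03. The called gene was Tbc1d1, a GAP of Rab proteins known for glucose transporter traffic in muscle. It was 7.12 and 7.78 RPKM in wild-type, against 3.13 and 3.43 in G85R, a log2 difference of -1.16 ± 0.14 with an adjusted p of 0.0231. No regulator was called without wild-type replicate 2, with the log-linear test, with a minimum of 5 RPKM or with no minimum level.

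By list, 1 of 29 tested Rab GAPs was called and none of the other lists held a call in limma, with the following unadjusted counts. Of 13 genes for prenylation and recycling 1 was under 0.05, of 29 Rab exchange factors 2, of 29 Rab GAPs 2, of 41 Rab effectors 4, of 12 Arf exchange factors 0, of 18 Arf GAPs 0, and of 40 Arf and Arl effectors and coats 2. Among the GAPs, Tbc1d13 was 13.02 and 12.7 RPKM in wild-type, against 18.8 and 19.0 in G85R (log2 difference 0.55 ± 0.11, adjusted p = 0.109). Among the exchange factors, 3110043O21Rik, the mouse counterpart of C9orf72, was 36.9, 35.0, 28.2 and 29.8 RPKM (unadjusted p = 0.0207, adjusted p = 0.341). Its G85R values lay under both wild-type values, and it did not pass the test.

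Of the Rab effectors, Sytl2, which binds Rab27, was 26.2 and 25.9 RPKM in wild-type, against 17.8 and 19.9 in G85R, with an adjusted p of 0.174. Mical3, which binds Rab8, was 9.17, 9.33, 7.07 and 6.17, with an adjusted p of 0.221. Rims1, the active-zone protein that binds Rab3, was 16.3, 16.4, 13.2 and 13.5, with an adjusted p of 0.396. These 3 were listed by their unadjusted p, and the G85R libraries were the low ones in each, with no overlap. Of the 4 Rab effectors with an unadjusted p under 0.05 in limma, 3 were lower and 1 was higher. The genotypes did not overlap in 17 of the 41 tested Rab effectors (41.5%), 3 higher and 14 lower, against 41.2% of all tested genes. Of the 4753 tested genes without overlap, 1997 were higher and 2756 lower in G85R. A log2 fold change above 0 was found in 11 of the 41 tested Rab effectors, in 6 of 13 genes for prenylation and recycling, 12 of 29 Rab exchange factors, 11 of 29 Rab GAPs, 4 of 12 Arf exchange factors, 6 of 18 Arf GAPs and 19 of 40 Arf and Arl effectors and coats, beside 45.3% of all tested genes. In the BBSome, the ciliary coat that Arl6 recruits, Bbs9 was 4.93, 5.00, 3.84 and 3.55 RPKM (adjusted p = 0.338) and Bbs4 was 22.2, 19.3, 17.5 and 16.2 (adjusted p = 0.439). Chml, which escorts Rab proteins to their prenylation, was 1.43, 1.78, 1.10 and 0.869 RPKM (adjusted p = 0.403).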

How the data were processed

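Motor neuron RNA was analysed in 4 libraries, 2 wild-type and 2 G85R, each from 1 mouse. The authors mapped reads with Bowtie 0.12.3 to mm9 and to splice junctions, and the deposited values are RPKM per UCSC gene cluster from Cufflinks, given without and with an added read (1 per gene). Subtracting the first from the second gives the RPKM of 1 read, from which reads behind a gene were estimated; because reads are divided between isoforms these are not counts, and no counting intervals were computed.

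For the comparison of genotypes, limma 3.58.1 under R 4.3.3 was used (lmFit, then trended eBayes) on log2(RPKM + 0.1), a scale that understates the change of low genes, for the 11530 genes with a mean of at least 1 RPKM, with Benjamini-Hochberg adjustment and calls at an adjusted p under 0.05. On simulated data with 200 of 11530 genes changed 2-fold, 71.5% were recovered, with 14 unchanged genes among 157 calls, and at 4-fold 98%, with 19 among 215. Alternatives were pseudocounts of 1 and 0.01, minimum levels of 0.1, 5 or none, quantile normalization, the median ratio, a replicate block, eBayes without trend or robust, the RPKM with 1 read added, leaving out each library, and the log-linear test of the study (Poisson, 1 degree of freedom).

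Members were placed on NCBIM37 by symbol (79) or synonym (1). Their transcripts were cut into 75-base windows every 15 bases and searched in the genome with BLAST 2.17.0, with up to 2 mismatches. Other values used Python 3.11.15, numpy 2.4.6, pandas 2.3.3 and matplotlib 3.10.9. Given in all 4 libraries were Arl16, members with an unadjusted p under 0.05, the 3 highest of each compartment, regulators called or (at most 3 per list) with an unadjusted p under 0.05, and genes next to a called member. A regulator that met this rule is not reported here. Further members were added after their values were seen. The members, the compartments and the lists were chosen with earlier results of these data known.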

Additional observations from a re-analysis of the deposited data

How the results depend on the processing

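Arl16 kept its direction under all 16 alternatives (log2 fold change -1.58 to -1.37, adjusted p 1.16e-05 to 0.169), and its call under all but the fit with no minimum level (-1.47, adjusted p 0.169), which tests every gene and calls 0 members, with 5 at an unadjusted p under 0.05, although the log-linear test over the same genes called Arl16. Genes called among all tested were 74, against 17 with a minimum of 5 RPKM, 39 with quantile normalization, 49 without trend, 112 with no minimum and 527 with the replicate block. With 1 library left out there were 78 to 188, where the lone library of a genotype is assumed to vary like the others. Members called were 1 to 2 with 1 library left out. The second was Rab26 without wild-type replicate 2, whose value of 8.06 RPKM stands apart from the 2.15 of replicate 1. Regulators called fell from 1 to 0 with the log-linear test, with a minimum of 5 RPKM, and with no minimum, and were 0 to 1 with 1 library left out. The causes were not tested. The median log2 fold change of the members was -0.0224 to 0.0425 with 1 library left out, below 0 without G85R replicate 1 (-0.0224) or without wild-type replicate 2 (-0.0055), and 0.03 to 0.05 with all 4 libraries. No other named member crossed the threshold outside the replicate block. Depth limits the 12 members under 1 RPKM.

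The labels give both genotypes replicates 1 and 2 without saying what a number shares, and the differences between replicates 1 and 2 correlated with r = 0.220 over 11530 genes, with only 2 pairs. With the replicate number as a block, members called were 2, Arl16 and Rab3b (-0.55, adjusted p 0.00472), and regulators called were 3.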
